A study of Mus musculus with 2 samples.

Results

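E2F transcription factors and the retinoblastoma family of pocket proteins were described in mouse embryonic fibroblasts (MEFs), mesenchymal cells grown from embryos. The set was given as 10 gene symbols, E2f1 to E2f8, Rb1 and Rbl1, and all 10 matched a row among the 23365 genes of the authors' deposited comparison table. The study sequenced RNA from 2 genotypes, MEFs with TET1 and TET2 knocked out and wild-type MEFs, with 1 library per genotype. TET1 and TET2 are enzymes that oxidize 5-methylcytosine in DNA, and the series title frames the work around their role in keeping developmental genes free of hypermethylation. The sources used here do not give the age of the embryos, the knock-out alleles or the number of embryos behind each culture. The table compares a condition B with a condition A. The series' design text names wild type first and the knock-out second, but the table itself does not say which genotype its letters stand for, so no value below is assigned to a genotype.

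E2F factors bind DNA with a DP partner, except the atypical E2F7 and E2F8, and they set the timing of genes for DNA replication and mitosis. E2F1, E2F2 and E2F3 are classed as activators, and E2F4 and E2F5 as repressors that act with pocket proteins. E2F6, E2F7 and E2F8 repress without binding pocket proteins. RB1 and its relatives p107 (Rbl1) and p130 (Rbl2) hold E2Fs in check until cyclin-dependent kinases phosphorylate them in late G1. E2f1, E2f2, E2f7, E2f8 and Rbl1 are themselves known E2F target genes, so the family both controls and belongs to the cell cycle programme.

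Values are normalized counts, that is, reads per gene divided by the authors' size factor for the library, and ratios are condition B over condition A. Whole reads could be worked out from the deposited mean and ratio, and they summed to 56168260 in condition B and 60135134 in condition A. Since each genotype has 1 library, differences have no replicate check, and the genotypes could not be tested. The 95% intervals below are exact and cover counting error only. A gene is said to pass the 2-fold threshold where its mean normalized count is 50 or more and its levels differ 2-fold or more (a log2 ratio of 1 or more, or of -1 or less). The p-values in the authors' deposited table set 1 library against another and do not test the genotypes. The targeted genes had lower whole-gene values in condition B. Tet1 had 138 normalized counts in condition B and 489 in condition A, and Tet2 had 528 in condition B and 879 in condition A, which does not show where reads of a deleted exon fell. The 10 fibroblast markers had summed levels of 1503940 in condition B and 1421910 in condition A, with Fn1, Col1a1 and Col1a2 the largest in both. The sums hide differences, since 4 of the 10 passed the threshold with higher levels in condition B. Dcn had 9194 normalized counts in condition B and 182 in condition A, and Thy1 had 44682 and 6077. Pdgfra had 3845 in condition B and 663 in condition A, and S100a4 had 26087 and 8439. Of 5 cartilage markers, 3 reached the minimum mean and all 3 were lower in condition B. The 5 summed to 5896 in condition B and 138982 in condition A, mostly from Col2a1 with 4598 and 134705. Sox9 had 1265 in condition B and 4025 in condition A, and Acan had 26.4 and 223. Markers of epithelium summed to 73.8 in condition B and 236 in condition A. The 1 epithelial marker at the minimum mean was Krt18, with 37.9 in condition B and 185 in condition A. Krt5 went the other way, with 17 reads in condition B and 1 in condition A. Markers of endothelium summed to 920.2 in condition B and 193 in condition A. Of the 5 endothelial markers, Kdr (730.5 normalized counts in condition B and 106 in condition A) and Tek (167 in condition B and 72.1 in condition A) passed the threshold, and Pecam1, Cdh5 and Tie1 were under 20 in each. Blood markers summed to 154 in condition B and 101 in condition A, and the 5 skeletal muscle markers to 1098 in condition B and 1090.0 in condition A, nearly all from Acta1, with Myod1, Myog and Myf5 at 0 in both. The part of these cell type differences in the results below was not tested. In bulk RNA, fewer cells of a type and less RNA per cell cannot be told apart.

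The 10 genes separated into 4 that were lower in condition B and 6 that did not pass the 2-fold threshold. E2f2, E2f7, E2f8 and Rbl1 were 3.24-fold to 4.23-fold lower in condition B, while 9.60% of 12401 genes passed the threshold in that direction. None of the 10 passed it with a higher level, as 8.31% of genes did, and 17.9% of genes passed it in either direction. The median log2 ratio of the 10 genes was -0.16, against -0.04 over all genes at the minimum mean. An adjusted p under 0.1 (DESeq, from the authors' deposited table) was listed for 0 of the 10 genes, against 2.29% of 17339 genes, 0.871% with a lower level in condition B. At an unadjusted p under 0.05 there were 3 of the 10 in the authors' deposited table, E2f7, E2f8 and Rbl1, all lower in condition B. Of all genes with a p-value, 6.28% were under 0.05, and 3.18% were so with a lower level in condition B.

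**Figure D1:**
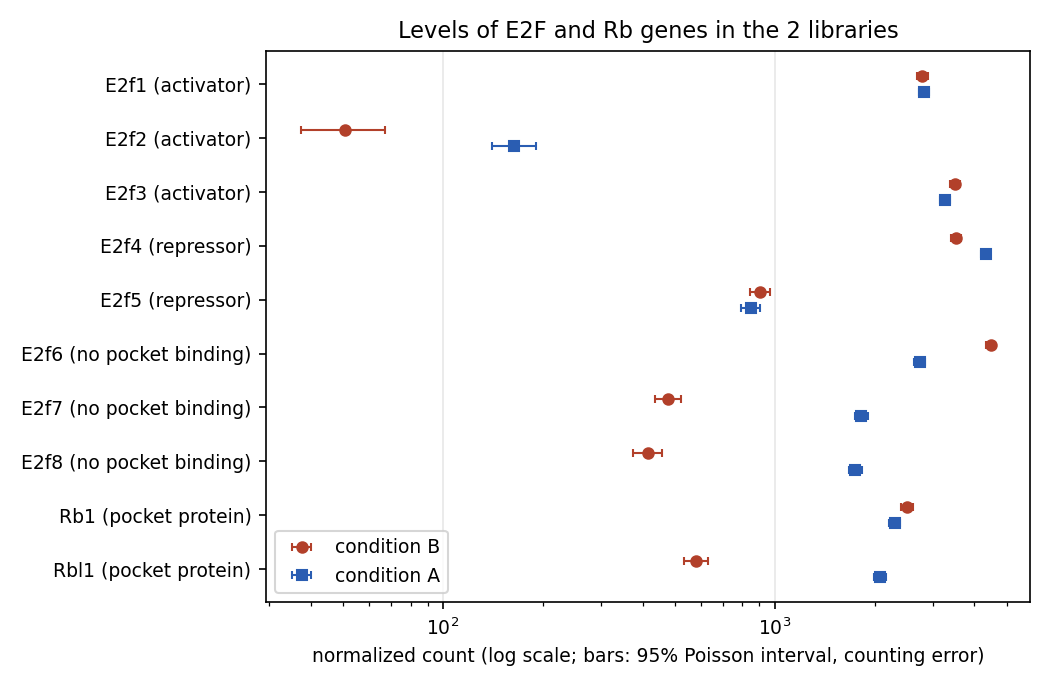
Normalized counts of the 10 genes (log axis) in condition B (circles) and condition A (squares), 1 library each, with 95% Poisson intervals for counting error. E2f2, E2f7, E2f8 and Rbl1 have circles far left of their squares, and E2f6 is the gene whose circle lies farthest to the right of its square.

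Among the activators, E2f1, which drives entry into S phase, had 2785 normalized counts in condition B and 2825 in condition A. Its log2 ratio was -0.02 with an interval of -0.10 to 0.06, so counting error alone spanned no change. E2f3, another activator of S phase genes, had 3501 normalized counts in condition B and 3257 in condition A, a log2 ratio of 0.10. E2f2 was scarce in both libraries, with 48 reads in condition B and 173 reads in condition A. That corresponded to 50.6 normalized counts in condition B and 164 in condition A, or a 3.24-fold lower level in condition B (interval 2.34 to 4.56). The activators thus differed from one another, since the interval of the E2f2 ratio lay wholly below those of E2f1 and E2f3. The authors' deposited table gives an adjusted p of 1 for each of the 3 activators.

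Among the repressors that work with pocket proteins, E2f4, the main E2F of resting cells, had 3524 normalized counts in condition B and 4320.3 in condition A. Its log2 ratio of -0.29 (interval -0.36 to -0.23) exceeded counting error but not the 2-fold threshold. E2f5, its closest relative, had 903 normalized counts in condition B and 848 in condition A, and its interval of -0.05 to 0.23 on the log2 scale held 0. The authors' deposited table gives an adjusted p of 1 for both.

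The E2Fs without a pocket protein binding site went in opposite directions. E2f6, a repressor that works with Polycomb proteins, had 4479 normalized counts in condition B and 2738 in condition A. It was 1.64-fold higher in condition B (interval 1.56 to 1.72), and it did not pass the 2-fold threshold. Of 12401 genes, 13.9% were at least 1.5-fold higher in condition B, and 88.5% had a ratio as high as that of E2f6 or lower. E2f7 had 478 normalized counts in condition B and 1824 in condition A, and it was 3.82-fold lower in condition B (interval 3.45 to 4.24). E2f8 had 414 normalized counts in condition B and 1752 in condition A, and it was 4.23-fold lower in condition B (interval 3.79 to 4.73), the largest difference among the 10 genes. E2F7 and E2F8 are made in late S phase and shut E2F target genes off again. Their adjusted p-values in the authors' deposited table were 0.241 for E2f7 and 0.167 for E2f8 (DESeq), both above 0.1. Of 12401 genes, 3.19% had a ratio as low as that of E2f7 or lower, and 2.64% one as low as that of E2f8 or lower.

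The pocket proteins were also split. Rb1 had 2506 normalized counts in condition B and 2300 in condition A, a log2 ratio of 0.12 with an interval of 0.04 to 0.21. Rbl1, which encodes p107, had 579.8 normalized counts in condition B and 2074 in condition A. It was 3.58-fold lower in condition B (interval 3.26 to 3.93), with an adjusted p of 0.277 in the authors' deposited table (DESeq). The remaining pocket protein gene Rbl2, which encodes p130 of resting cells, had 2589 normalized counts in condition B and 2660.1 in condition A, so of the 3 pocket protein genes Rbl1 alone passed the threshold.

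**Figure D2:**
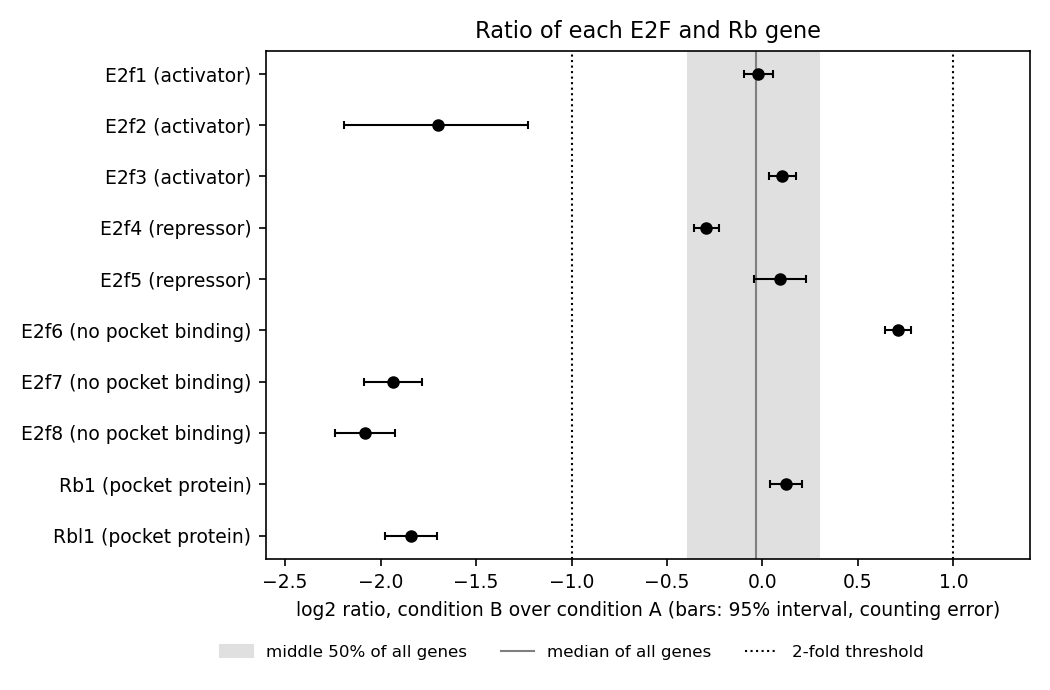
Log2 ratio of each gene, condition B over condition A, with 95% intervals for counting error. The grey band holds the middle 50% of 12401 genes and dotted lines mark the 2-fold threshold. E2f2, E2f7, E2f8 and Rbl1 lie between -1.70 and -2.08, E2f6 lies at 0.71 and the other 5 lie inside the band.

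Some exons of these genes overlap genes on the opposite strand in the GENCODE M21 annotation, and the library kit does not mark strand. E2f8 shares 610 of its 5443 exonic bases with Gm2788, and Rb1 shares 488 of 6015 with Rcbtb2 and 408 with Lpar6. Lpar6 had a log2 ratio of 0.32 and Rcbtb2 one of -0.39. Reads of the shared stretches cannot be told apart, and the sources used here do not name the annotation the authors counted on.

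Within 1 library the balance between relatives needs no size factor. Rbl1 had 0.231 reads per Rb1 read in condition B (interval 0.211 to 0.254), against 0.902 in condition A (interval 0.851 to 0.956). E2f7 had 0.171 reads per E2f1 read in condition B (interval 0.155 to 0.190), against 0.646 in condition A (interval 0.609 to 0.684). E2f8 had 0.149 reads per E2f1 read in condition B and 0.620 in condition A. The atypical E2Fs therefore had fewer reads relative to E2f1 in condition B whatever scaling is used. E2f8 per E2f7 read was 0.868 in condition B and 0.960 in condition A, with overlapping intervals of 0.756 to 0.995 and 0.901 to 1.02, so counting error did not separate the balance of the pair between the libraries. E2f6 outnumbered E2f4 in condition B at 1.27 reads per E2f4 read, against 0.634 in condition A.

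**Figure D3:**
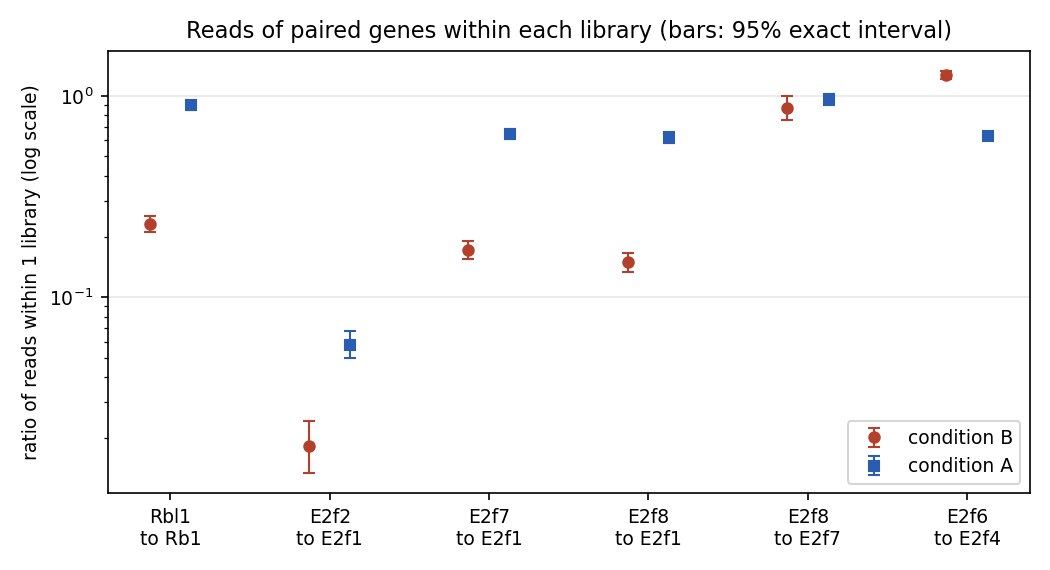
Reads of 1 gene per read of another within the same library (log axis), condition B (circles) left of condition A (squares), with 95% exact intervals. The ratios of Rbl1 to Rb1, E2f2 to E2f1, E2f7 to E2f1 and E2f8 to E2f1 are lower in condition B, E2f6 to E2f4 is higher, and E2f8 to E2f7 overlaps.

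Levels of different genes were compared per kilobase of the longest GENCODE M21 transcript, since longer transcripts give more reads. E2f4 had the highest level in both libraries, 1768 normalized counts per kilobase in condition B and 2168 in condition A. E2f2 had the lowest, 10.7 per kilobase in condition B and 34.6 in condition A. E2f6 ranked 2 in condition B with 1484 per kilobase and 3 in condition A with 907 per kilobase, while E2f1 ranked 3 in condition B with 1011 and 2 in condition A with 1025 per kilobase. E2f3 followed in both, with 687 per kilobase in condition B and 639 in condition A. Rb1 and E2f5 did not differ beyond counting error in either library, and neither did E2f5 and E2f8 in condition A or Rbl1 and E2f8 in condition B. E2f7, E2f8 and Rbl1 stood at 87.2, 112 and 119 per kilobase in condition B, well under the 508 of E2f5. In condition A they stood at 333, 475 and 427 per kilobase, beside the 477 of E2f5. Which isoforms were present is not known from a value per gene, and a shorter main isoform would raise a gene's level per kilobase.

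The promoters of the genes that were lower in condition B are shown because these genes were lower together and because E2F proteins are known to bind one another's promoters. RefSeq windows of 300 bases (250 before and 50 after a transcript start, build GRCm38.p6) were matched by symbol for 7 of the 10 genes, and those of E2f4, E2f5 and Rb1 were not used here. The consensus E2F site was searched on both strands in its 4 spellings, TTTCCCGC, TTTCGCGC, TTTGGCGC and TTTGCCGC, which 2.60% of 27025 genes with a window hold. The CHR element TTTGAA, through which MuvB complexes bind late cell cycle genes, was held by 20.2%. E2f3 is the 1 gene below with both in 1 window, and they do not overlap there. Of the 4 lower genes, E2f2 (at 1 of its 2 starts), E2f7 and Rbl1 hold the E2F site, while E2f8 holds the CHR element. A second listed start of E2f2, downstream at chr4:136180532-136180831, also holds the CHR letters. A value per gene does not show whether that start was used. E2f3, whose other start holds neither, had a log2 ratio of 0.10. The windows used here for E2f1 and E2f6 hold neither in these letters. Windows were matched by symbol alone, so a gene's main promoter may lie outside its window. The absence of a match thus does not show that a gene's promoter lacks the site. Capitals mark the E2F site, or in E2f8 the CHR element. In E2f7, E2f8 and E2f3 the match is on the other strand, so its reverse complement is in capitals. The windows lie at chr4:136172024-136172323 on the plus strand for E2f2, chr10:110745189-110745488 on the plus strand for E2f7, chr7:48881547-48881846 on the minus strand for E2f8, chr2:157204485-157204784 on the minus strand for Rbl1 and chr13:29986014-29986313 on the minus strand for E2f3.
E2f2: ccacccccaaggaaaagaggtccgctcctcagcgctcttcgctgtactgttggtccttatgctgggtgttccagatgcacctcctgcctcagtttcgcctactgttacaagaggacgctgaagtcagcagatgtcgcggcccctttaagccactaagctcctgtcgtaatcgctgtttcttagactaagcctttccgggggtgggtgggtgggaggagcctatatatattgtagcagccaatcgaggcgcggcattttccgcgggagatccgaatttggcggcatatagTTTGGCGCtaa
E2f7: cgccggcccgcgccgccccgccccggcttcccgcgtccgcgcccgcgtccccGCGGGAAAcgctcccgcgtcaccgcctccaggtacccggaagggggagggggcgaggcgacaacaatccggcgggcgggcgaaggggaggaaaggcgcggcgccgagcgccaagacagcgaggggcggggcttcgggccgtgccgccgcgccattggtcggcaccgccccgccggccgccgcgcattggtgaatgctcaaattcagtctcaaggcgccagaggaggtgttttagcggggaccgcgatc
E2f8: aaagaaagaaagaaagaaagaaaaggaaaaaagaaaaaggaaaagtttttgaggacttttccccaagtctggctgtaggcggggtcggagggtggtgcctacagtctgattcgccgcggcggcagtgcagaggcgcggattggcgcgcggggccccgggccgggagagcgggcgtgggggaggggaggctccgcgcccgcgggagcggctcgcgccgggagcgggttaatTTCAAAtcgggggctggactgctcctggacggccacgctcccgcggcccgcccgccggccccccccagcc
Rbl1: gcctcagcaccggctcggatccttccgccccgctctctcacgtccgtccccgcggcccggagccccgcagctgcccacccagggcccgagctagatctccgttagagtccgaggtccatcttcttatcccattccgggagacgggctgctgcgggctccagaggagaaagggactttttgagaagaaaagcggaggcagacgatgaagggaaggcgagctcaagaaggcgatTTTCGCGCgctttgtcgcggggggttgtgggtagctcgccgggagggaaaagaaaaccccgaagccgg
E2f3: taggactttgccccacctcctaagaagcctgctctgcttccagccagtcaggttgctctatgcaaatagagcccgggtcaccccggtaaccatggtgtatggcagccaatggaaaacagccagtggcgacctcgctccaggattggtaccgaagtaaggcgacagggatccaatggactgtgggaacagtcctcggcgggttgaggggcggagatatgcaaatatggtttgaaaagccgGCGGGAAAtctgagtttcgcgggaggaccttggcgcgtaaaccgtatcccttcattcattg

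The match begins 18 bases before the transcript start in Rbl1 and 11 bases before it in E2f3, and at base 40 of the transcript in E2f2. In E2f7 it lies farther off, 198 bases before the start. The CHR element of E2f8 begins 20 bases before its start. A match of letters is a description of the reference sequence and does not show binding in these cells. E2f3 and E2f2 each hold the site at 1 listed start and not at the other, and their log2 ratios were 0.10 and -1.70. These are values per gene and do not show which start was used, so a relation between site and ratio was not tested.

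Tfdp1 and Tfdp2, the DP subunits that bind DNA beside E2F1 to E2F6, had log2 ratios of -0.32 and 0.04. Tfdp1 had 6331 normalized counts in condition B and 7896 in condition A. Of the 3 genes in this list, which includes Rbl2, 0 passed the 2-fold threshold, which 17.9% of all genes passed, so a count over so few genes says little. Lists of pathway genes were written with earlier results of these data known, so their direction is not independent evidence.

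Most of the listed genes that E2F factors switch on for DNA replication had lower levels in condition B. All 38 ratios were below 0, and 30 genes passed the 2-fold threshold, as 9.60% of all genes did with a lower level. The median log2 ratio of the 38 was -1.38. An unadjusted p under 0.05 (DESeq) was listed for 17 genes by the authors' deposited table, all lower in condition B. Of all genes with a p-value, 3.18% were so. That table lists adjusted p-values under 0.1 for Uhrf1 and Ccna2 alone, and for 0.871% of all genes with a lower level in condition B. Of the 38, 4 also belong to the cyclins and kinases described further on, and Mybl2 to the MuvB partners. Uhrf1, which guides DNA methylation to newly copied DNA, had 1403 normalized counts in condition B and 7761 in condition A. Cdc6, which loads the replicative helicase, had 287 normalized counts in condition B and 1318 in condition A. Ccna2, the S phase cyclin, had 1542 normalized counts in condition B and 6304 in condition A, and the repair gene Brca1 had a log2 ratio of -2.01. The log2 ratios of Ccna2, at -2.03, and Brca1 lay between those of E2f8 and E2f7. The least different, chosen after their values were seen, were the ribonucleotide reductase subunit gene Rrm2 at -0.08, the mismatch repair gene Msh6 at -0.17 and the cyclin gene Ccne1 at -0.31, which lay nearer to E2f1 and E2f3.

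Genes of G2 and mitosis, which the DREAM and MuvB complexes control through pocket proteins, E2F4 and CHR elements, had lower levels in condition B throughout this list. All 21 passed the 2-fold threshold, as 9.60% of all genes did with a lower level. Their log2 ratios lay between -2.35 and -1.34, with a median of -1.87. The authors' deposited table lists an unadjusted p under 0.05 for all 21, and 7 of them have an adjusted p under 0.1 there. Of all genes with a p-value, 3.18% and 0.871% were so with a lower level in condition B. The kinesin gene Kif11 had 1069 normalized counts in condition B and 5440 in condition A. The kinetochore gene Cenpf, the proliferation marker Mki67 and the checkpoint kinase gene Bub1b had log2 ratios of -2.32, -2.26 and -2.15. Of 19 of these genes with a promoter window, 73.7% hold the CHR element and 5.26% the E2F site, against 20.2% and 2.60% of all genes with a window. The list was written as targets of complexes that act through CHR elements. Its CHR share is therefore not independent of the choice of genes and says nothing about the ratios.

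**Figure D4:**
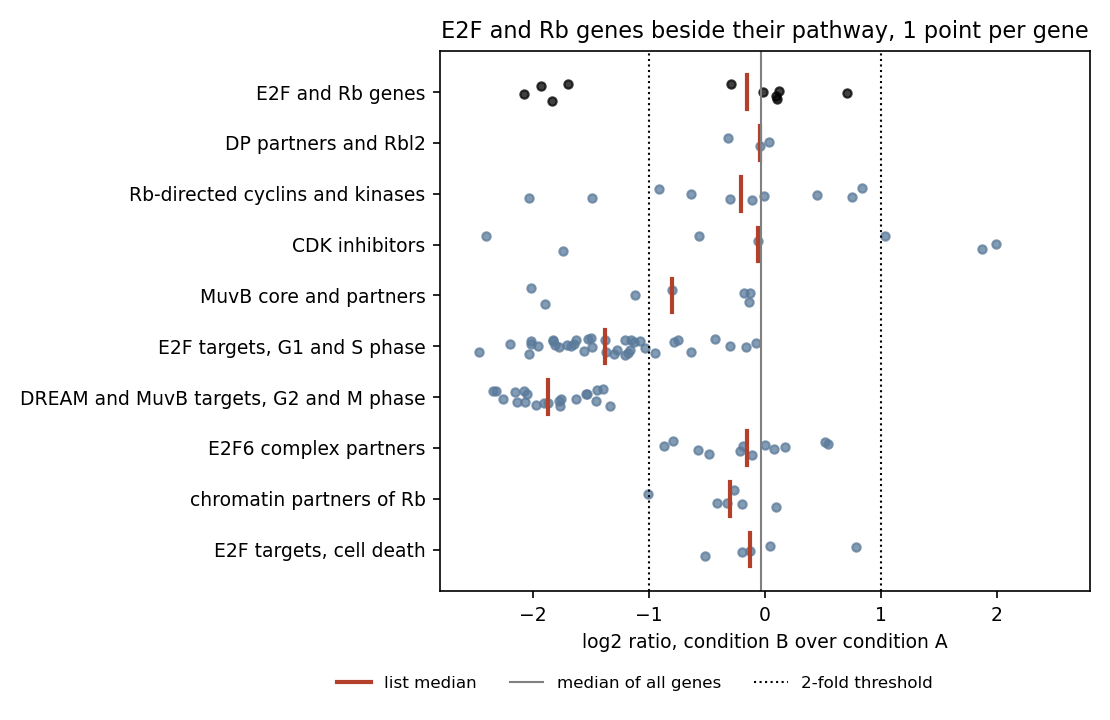
Log2 ratio, condition B over condition A, of each gene at the minimum mean in 10 lists, 1 point per gene, with the list median as a bar. The E2F and Rb genes hold 4 points near the G1, S, G2 and M phase targets, 5 near the median of all genes, which is the grey line, and E2f6 at 0.71.

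The MuvB core and its partners also differed among themselves, but unlike the 10 genes all 7 had ratios below 0. Mybl2 (B-MYB) and Foxm1, which join MuvB to switch on late cell cycle genes, had log2 ratios of -2.01 and -1.90. Mybl2 had 484 normalized counts in condition B and 1953 in condition A. The core subunit gene Lin9 also passed the threshold at -1.12. Lin54, which contacts the CHR element, lay at -0.81, Rbbp4 at -0.18, Lin37 at -0.13 and Lin52 at -0.13. In all, 3 of 7 passed the threshold, all lower in condition B, as 9.60% of all genes did. The authors' deposited table (DESeq) has no adjusted p under 0.1 among the 7, against 2.29% of all genes with a p-value. It lists 2 with an unadjusted p under 0.05, both lower in condition B, as 3.18% of those genes were.

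The kinases that inactivate RB1 and their inhibitors did not move in 1 direction. Of 10 cyclins, kinases and a phosphatase, 2 passed the 2-fold threshold, which is near the 17.9% of all genes that passed it. They were Ccna2 and the E2F target Ccne2 at -1.49, both lower in condition B. The D cyclins, which start RB1 phosphorylation, were abundant and lay on the higher side. Ccnd1 had 50571 normalized counts in condition B and 28312 in condition A, a log2 ratio of 0.84. Cdk2, the partner of cyclins E and A, lay at -0.91. Named after their values were seen, Ccnd2 lay at 0.75, Ccnd3 at 0.45, the D cyclin partners Cdk4 and Cdk6 at -0.12 and -0.01, and the activating phosphatase gene Cdc25a at -0.64.

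Of 7 inhibitors of these kinases, 3 passed the threshold with higher levels in condition B and 2 with lower levels. Over all genes, 8.31% passed it with a higher level and 9.60% with a lower one. Cdkn2a, the locus of p16 and p19Arf, had 15418 normalized counts in condition B and 3870 in condition A (log2 ratio 1.99, adjusted p 0.0854 in the authors' deposited table). The table gives 1 value for the locus, so p16, which blocks CDK4 and CDK6, could not be separated from p19Arf. Its neighbour Cdkn2b, which encodes p15, had 11266 normalized counts in condition B and 3073 in condition A, and the p53 target Cdkn1a (p21) lay at 1.03. Cdkn1b (p27) had 1002 normalized counts in condition B and 5309.8 in condition A (log2 ratio -2.41, adjusted p 0.0252 in the authors' deposited table). Cdkn2c (p18), itself an E2F target, lay at -1.74, Cdkn2d (p19Ink4d) at -0.57 and Cdkn1c (p57) at -0.06. The inhibitors specific to CDK4 and CDK6 thus included both the higher Cdkn2a and Cdkn2b and the lower Cdkn2c.

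E2f6, the gene of the set with the highest ratio, works in a Polycomb complex that silences germline genes in somatic cells. Of 12 partners in that complex, 0 passed the 2-fold threshold, which 17.9% of all genes passed, and the median log2 ratio was -0.15. L3mbtl2 lay at -0.87, the heterochromatin protein gene Cbx3 at -0.80, the scaffold gene Mga at -0.58 and its partner Max at 0.54. Of 7 germline genes known to need E2F6 for silencing in mice, Stag3, a meiotic cohesin gene, was the one at the minimum mean. It had 148 normalized counts in condition B and 86.3 in condition A, a log2 ratio of 0.77 with an interval of 0.38 to 1.17. Smc1b had 6 reads in condition B and 9 in condition A, Slc25a31 had 1 and 3, Tuba3b had 1 in each, and Tuba3a, Hormad1 and Mael had 0 in both. Apart from Stag3, these genes were at or near 0 in both libraries, where a difference was not detectable at this depth.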

How the data were processed

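RNA from MEFs of 2 genotypes, 1 library each, was extracted with TRIzol and made into TruSeq RNA v2 libraries, per the labels' protocols. TopHat2 2.0, DESeq and build mm9 are named in the submitters' processing notes. The sources used here do not name the counter or the annotation. The deposited file analysed here is a table of the authors' own comparison. Its signal is the authors' mean normalized count over both conditions, gene counts divided by size factors. The authors' ratio (fold) is condition B over condition A, and the authors' log2 ratio has no pseudocount. The p-values and adjusted p-values are the authors' deposited values.

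The 2 columns of values per condition match no sample label and were not read. Levels were worked out from the mean and the ratio. Genes at 0 in 1 condition gave the value of 1 read, 1.05 normalized counts in condition B and 0.949 in condition A. By these values 100% of levels came out whole within 0.01 read, and log2 ratios computed from the reads matched the authors' to within 5e-10. Intervals are exact (Clopper-Pearson for ratios, Poisson for levels) at 95%, from scipy 1.17.1. The intervals cover counting error only and take each read as an independent draw. Reads carry no molecular identifiers, so copies of the same molecule were not set apart and the intervals may be too narrow. The calculations were tested on simulated data.

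The 2-fold threshold was a log2 ratio of 1 or more, or of -1 or less, at a mean of 50 or more. The 10 genes and the lists were chosen with earlier results of these data known. Named genes were all 10, every gene of lists of up to 7, and up to 4 of each longer list with the largest ratios. Some list genes are not reported here by name. Alternatives were log2 thresholds of 0.585 and 2, minimum means of 10, 200 and none, centring on the median or the trimmed mean of ratios, a pseudocount of 10 and an adjusted p under 0.05.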

Additional observations from a re-analysis of the deposited data

How the results depend on the processing

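At a log2 threshold of 2 in place of 1, 1 of the 10 genes passed, E2f8, lower in condition B. Of the 38 G1 and S phase targets 5 passed it, all lower in condition B, with Mybl2 at -2.01 the nearest to the threshold. Of 12401 genes, 2.91% had a ratio as low as that of Mybl2 or lower. A minimum mean of 200, which leaves out E2f2, gave a median log2 ratio of -0.0207 for the remaining genes. The other 18 alternatives kept the counts within 1.5 times, including an adjusted p under 0.05 with 0 of the 10 genes. Where they concerned the median, it stayed between the median lower and the median upper bound of the 10 genes' intervals. That range is not a counting interval of the median itself. Centring on the median (-0.04) or the trimmed mean of ratios (-0.04) and a pseudocount of 10 moved each of the 10 ratios by less than its counting interval (30 of 30 values). Among the other lists 14 alternatives moved a count by over 1.5 times and 56 did not. Suv39h1, the 1 chromatin partner of Rb past the 2-fold threshold, no longer passed it under either centring. With 1 library per genotype, no library could be left out, and the spread between cultures is not known. Depth limits E2f2, with 48 reads in condition B, and the germline genes.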

Other observations

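Of 6 genes of chromatin proteins that bind Rb, 1 passed the 2-fold threshold, which 17.9% of all genes passed. It was the methyltransferase gene Suv39h1, lower in condition B at a log2 ratio of -1.01. The deacetylase genes Hdac1 and Hdac2 lay at -0.27 and -0.20, the demethylase gene Kdm5a at -0.42, and Arid4a and Arid4b at 0.09 and -0.33. Of 4 ubiquitin ligase subunits that act on E2F factors or on p27, 2 passed the threshold with lower levels in condition B. Of all genes, 9.60% did so. Cyclin F (Ccnf), which targets activator E2Fs for breakdown, had 1033 normalized counts in condition B and 2893 in condition A. Skp2, which targets p27, had 1052 normalized counts in condition B and 2173 in condition A, while its cofactor Cks1b and the APC/C activator gene Fzr1 lay at -0.58 and -0.50.

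Of 5 E2F targets of cell death at the minimum mean, 0 passed the threshold, which 17.9% of all genes passed. Their median log2 ratio was -0.13. The apoptosome gene Apaf1 lay at 0.05 and Bcl2l11 at -0.13. Pmaip1 (Noxa), also a p53 target, lay at 0.79. Trp73 had 3 reads in condition B and 0 in condition A.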
